A study of Mus musculus with 24 samples.

Results

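(+)-JQ1 blocks the bromodomains of the BET proteins, the pockets with which they hold acetylated lysines, and the comparison described here asks what raising its dose from 0.2 to 0.5 µM did to the transcripts of mouse neural progenitor cells after 12 h. Its members are the 3 libraries treated with (+)-JQ1 at 0.5 µM for 12 h and the 3 treated at 0.2 µM for 12 h, 6 of the 24 libraries in the series, chosen by their titles. The progenitors came from C57BL/6 cortices at embryonic day 12, were grown with basic fibroblast growth factor and B27 supplement, and were used at passage 3. All groups were kept in differentiation medium and all received an enantiomer of JQ1, so the control groups were treated too. The 6 libraries treated with (−)-JQ1, the mirror-image molecule used as inactive control, at the same 2 doses for 12 h, and the 6 treated with (+)-JQ1 at both doses for 24 h, are used beside them. Per the labels, the 3 libraries of a group stem from independent cell preparations. No group without either enantiomer is used here, and the sex of the embryos is not given in the sources used here.

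BET proteins bind acetylated histones at promoters and enhancers and recruit the elongation factor P-TEFb, which releases paused RNA polymerase II. Genes that depend on large, densely acetylated enhancers, among them many that define a cell's lineage, tend to respond to BET inhibitors early. When growth factor is withdrawn, cortical progenitors can give rise to neurons, astrocytes and cells of the oligodendrocyte lineage. That last lineage runs from precursors, marked by Pdgfra, Olig2 and Sox10, through premyelinating cells, marked by Gpr17 and Enpp6, to myelinating cells that make Mbp.

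The values are FPKM, fragments per kilobase of transcript scaled to the mapped reads of a library, so read numbers are lost and the absolute depth is unknown. Relative to one another, the 6 libraries had depths between 0.984 and 1.06, read from the spacing of their lowest values. The search covered only depths near 1, so a much larger difference could not have shown. Outside the reference library, 16.6 to 19.7% of the low genes compared lay at the step chosen, so the depths are rough. Mir5105 took at most 6.69% of the summed FPKM in any of the 6 libraries. FPKM summed to 432235 to 491024 per library, and 17321 to 17561 genes had a value above 0. The 6 markers of neural progenitors and radial glia (Nes, Sox2, Pax6, Vim, Fabp7 and Hes5) summed to 4136 to 5452 FPKM per library, so the markers of the labelled cell type were present. The 5 microglial markers stayed below 1 FPKM in each of the 6 libraries, with Aif1 at 0. All 6 markers of pericytes and fibroblasts did so too, with Rgs5 at 0, as did 4 of the 5 endothelial markers, with Cdh5 and Cldn5 at 0, and the 4 erythroid markers in the table, with Hba-a1, Hba-a2 and Hbb-b1 at 0. The 4 ependymal and choroid plexus markers summed to 3.83 to 5.26 FPKM at 0.2 µM and 2.59 to 3.60 FPKM at 0.5 µM, with Tmem212 at 0 and Foxj1 as the only one above 1 FPKM.

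The dose step lowered far more genes than it raised, and genes of the oligodendrocyte lineage were among those it lowered most. With limma on log2(FPKM + 1) and Benjamini-Hochberg adjustment over 13801 genes, 89 genes passed an adjusted p of 0.05 (0.645%), which is what "called" means below. Of them, 84 fell (0.609%) and 5 rose (0.0362%). 12 of the 84 fell by at least 2-fold on that scale, which makes changes of weakly expressed genes look smaller than they are, and 30 of the 84 had a mean under 5 FPKM. The log2 difference of the 84 ranged from -2.83 to -0.38 with a median of -0.67, beside a median of -0.02 over all genes tested, of which 56.5% were below 0. The 3 libraries at 0.5 µM lay below the 3 at 0.2 µM in 83 of the 84 genes, Prss23 being the exception, against 10.7% of all genes tested. The 84 were picked by a test on these same libraries, so this describes them and adds no separate support. At an unadjusted p under 0.05, 761 genes were lower and 198 higher. Groups that do not overlap were a condition for naming the largest falls and rises below, so their separation there is no added result.

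The number of called genes depends on single libraries. Without replicate 1, 2 or 3 at 0.2 µM it was 41, 50 or 40, and without replicate 1, 2 or 3 at 0.5 µM it was 50, 59 or 35. It was 30 when the 6 libraries alone were fitted, 137 with a pseudocount of 0.1, 208 when the 12 h libraries alone were fitted, and 302 with library weights. 16 genes, all of them lower, kept the call in each of the 18 alternatives, among them Gpr17, Enpp6, Gm98, Pdgfra, Lims2, Gpr56, Slc1a1 and Rap1gap. 24 genes, again all lower, kept it without each of the 6 libraries in turn.

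**Figure D1:**
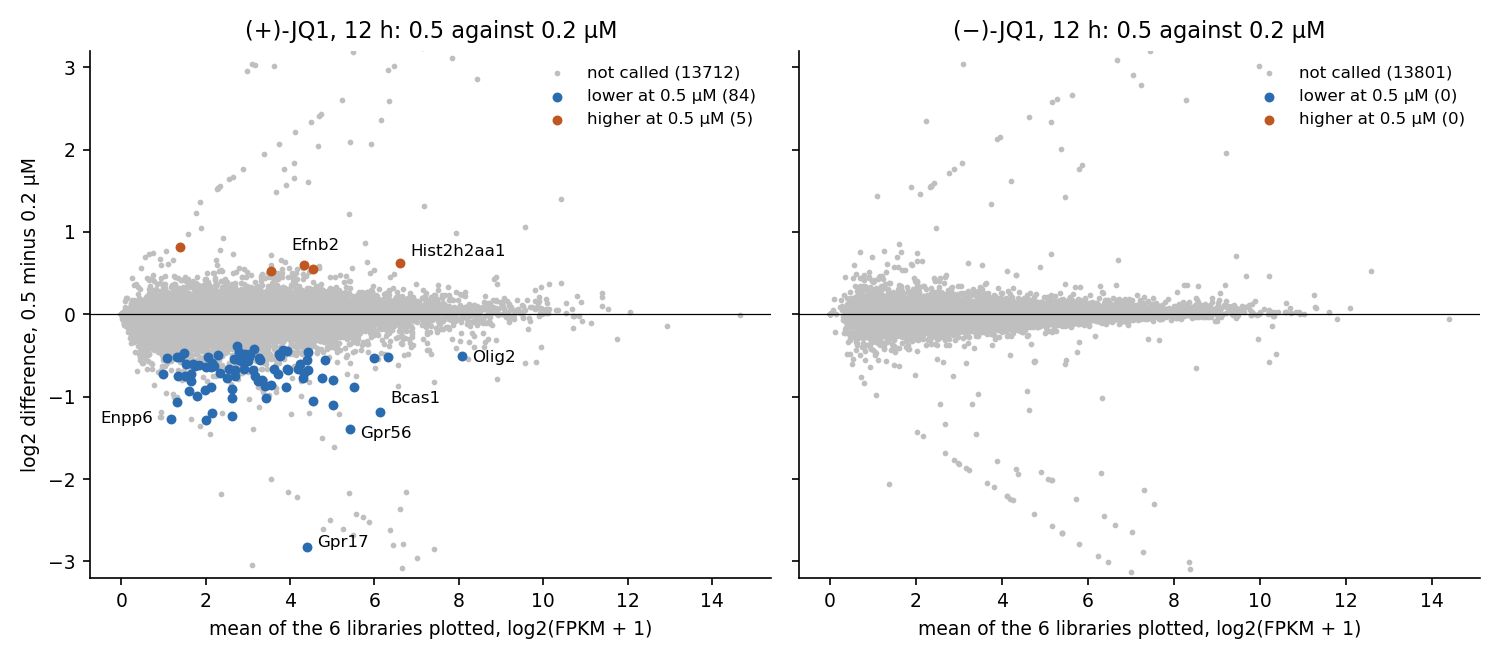
Difference between 0.5 and 0.2 µM in log2(FPKM + 1) (y axis) against the level of each gene, as log2(FPKM + 1) of the mean over the 6 libraries plotted (x axis), for (+)-JQ1 (left) and (−)-JQ1 (right) at 12 h. Each point is 1 of 13801 genes; 84 genes were called lower (blue) and 5 higher (orange) with (+)-JQ1 and none with (−)-JQ1, and 41 genes beyond the y axis in either panel, 40 of them genes with Mir or Snor symbols, are not drawn.

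Premyelinating and myelinating genes included Gpr17, which had the largest fall. 7 of the 25 tested members of this list were called lower and none higher, against 0.609% of all genes called lower. 24 of the 25 had a log2 difference below 0, where 56.5% of all genes did, and the list's median was -0.49. The lists were drawn up with earlier results of these data known, so their counts describe the pattern and do not test it anew. The other 2 of the 27 listed genes, Mog among them, were below the filter on low values. In bulk RNA, fewer cells of a type and less RNA per cell cannot be told apart, here and in all that follows. The 4 premyelinating markers (Gpr17, Enpp6, Bcas1 and Tnr) are called members of this list, so their sum restates these falls. It was 111 to 178 FPKM at 0.2 µM and 40.6 to 56.3 FPKM at 0.5 µM. The 5 precursor markers summed to 767 to 976 FPKM at 0.2 µM and 568 to 625 FPKM at 0.5 µM. The 6 progenitor markers went the other way, from 4136 to 5063 FPKM at 0.2 µM to 5131 to 5452 FPKM at 0.5 µM. The progenitor sum is mostly Fabp7 and Vim. Vim was at 1431, 1745 and 1778 FPKM at 0.2 µM and at 1674, 2101 and 2007 FPKM at 0.5 µM, ranges that overlap. Fabp7 was at 2883, 1875 and 2744 FPKM and then at 3195, 2490.2 and 2918 FPKM, which overlap too. Within each replicate number both were higher at 0.5 µM, although the numbers were not taken as pairs. Pax6 and Hes5 were so too, whereas Sox2 and Nes were not. The part of the progenitor level in the differences was not tested.

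Gpr17 codes for a receptor that premyelinating oligodendrocytes carry for a short time and then lose. Its level was 51.6, 28.5 and 28.5 FPKM in the 3 libraries at 0.2 µM and 5.52, 3.93 and 2.95 FPKM in those at 0.5 µM. Every library at the higher dose lay below every library at the lower dose. The log2 difference was -2.83 ± 0.21 (SE, limma adjusted p = 1.7e-07), the largest of any called gene. Enpp6, a choline-specific phosphodiesterase of newly forming oligodendrocytes, stood at 2.39, 1.76 and 2.44 FPKM at 0.2 µM and at 0.337, 0.196 and 0.419 FPKM at 0.5 µM. The groups did not overlap and the higher dose left it below 1 FPKM in each library (log2 -1.27 ± 0.13, limma adjusted p = 2.39e-05).

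Gm98 is the symbol the files use for Myrf, the membrane-bound transcription factor that switches on myelin genes. It was at 10.2, 6.45 and 6.45 FPKM at 0.2 µM and at 2.93, 2.26 and 2.71 FPKM at 0.5 µM, again without overlap (log2 -1.24 ± 0.20, limma adjusted p = 0.00225). Tnr, which codes for the matrix protein tenascin-R, fell from 5.25 ± 1.48 to 1.69 ± 0.383 FPKM (SD, n = 3 each; log2 -1.20). Bcas1, a gene of early myelinating cells, was at 117, 75.9 and 95 FPKM at 0.2 µM and at 48.3, 35.1 and 40.9 FPKM at 0.5 µM, so its lowest value at the lower dose lay above its highest at the higher dose (log2 -1.18 ± 0.21). Ugt8a, the enzyme that makes galactosylceramide for myelin, fell least of the called members, by 0.44 ± 0.10 on the log2 scale.

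The calls of Gpr17, Enpp6, Gm98 and Tnr held without each of the 6 libraries. That of Bcas1 was lost without replicate 1 at 0.2 µM (limma adjusted p = 0.0592). Ugt8a lost its call without each library but replicate 2 at 0.2 µM, with limma adjusted p between 0.1001 and 0.2511. Other members of the list did not pass the test: Mbp, which codes for myelin basic protein, had a log2 difference of -0.83 ± 0.30, Mag, a myelin adhesion receptor, of -0.85 ± 0.27, Cldn11, a tight junction protein of myelin, of -0.92 ± 0.27, and Cnp of -0.62 ± 0.17. Gal3st1, which makes sulfatide from galactosylceramide, and Omg, which codes for oligodendrocyte myelin glycoprotein, were not on the list. Both were called lower, at log2 -0.94 ± 0.20 (limma adjusted p = 0.0249) and -1.01 ± 0.21 (limma adjusted p = 0.0227). Gal3st1 lost the call without each of the 6 libraries in turn (limma adjusted p 0.0523 to 0.1382) and Omg without each but replicate 2 at 0.2 µM (limma adjusted p 0.063 to 0.137).

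Genes of oligodendrocyte precursors fell as well. 8 of the 15 tested members were called lower and none higher, against 0.609% of all genes called lower. 14 of 15 were below 0, where 56.5% of all genes were, and the median was -0.51. The number called was 3 without replicate 1, 2 or 3 at 0.2 µM, 4, 3 and 2 without replicates 1, 2 and 3 at 0.5 µM, and 4 after median-of-ratios scaling. Pdgfra, the receptor for the growth factor that keeps precursors dividing, was at 25.2, 22.8 and 28.3 FPKM at 0.2 µM and at 15.6, 15.9 and 15.1 FPKM at 0.5 µM. The 3 libraries at the higher dose lay within 1 FPKM of each other and all below the lower dose (log2 -0.67 ± 0.10, limma adjusted p = 0.00188). Lims2, which codes for a focal adhesion adaptor, fell from 3.60 ± 0.236 to 1.32 ± 0.326 FPKM (SD, n = 3 each; log2 -0.99 ± 0.15). The calls of these genes held without each library.

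The transcription factors that set up the lineage had falls of different estimated size, and differences between these genes were not tested. Nkx2-2, a homeodomain factor of precursors that begin to mature, was at 15.6, 12.5 and 12.2 FPKM at 0.2 µM and at 8.17, 5.98 and 4.55 FPKM at 0.5 µM, with no overlap (log2 -1.02 ± 0.19, limma adjusted p = 0.0118). Sox10, the factor that drives myelin gene transcription, was at 65.5, 53 and 54.6 FPKM and then at 37.5, 32.0 and 24.3 FPKM, so its 2 groups were also apart (log2 -0.88 ± 0.20, limma adjusted p = 0.0432). Sox8, a relative of Sox10, went from 73.6 ± 2.67 to 50.8 ± 1.43 FPKM (SD, n = 3 each; log2 -0.53 ± 0.12).

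Olig2, the basic helix-loop-helix factor that specifies the lineage, was at 291, 292 and 366 FPKM at 0.2 µM and at 209, 231 and 224 FPKM at 0.5 µM. It stayed the most abundant of the 8 called precursor genes at both doses (log2 -0.51 ± 0.11, limma adjusted p = 0.0355). Olig1, its neighbour in the family, was not called. It was at 396, 398 and 527 FPKM at 0.2 µM and at 306, 347 and 342 FPKM at 0.5 µM, which do not overlap either, with a log2 difference of -0.40 ± 0.29 and a 95% interval from -1.0 to 0.20. The SE and interval take in the spread of all 24 libraries. At 24 h Olig1 was at 286, 546 and 337 FPKM at 0.2 µM (+)-JQ1. Lhfpl3 (log2 -0.77 ± 0.16) and Cacng4 (log2 -0.68 ± 0.16), which codes for a subunit that regulates glutamate receptors, complete the 8. The call of Nkx2-2 was lost without replicate 1 at 0.2 µM (limma adjusted p = 0.084) and without replicate 3 at 0.5 µM (0.1134). Sox8, Olig2 and Cacng4 each lost the call without each of the 6 libraries, with limma adjusted p from 0.0573 to 0.2375 over the 3 genes. Sox10 lost it without each library but replicate 1 at 0.5 µM (limma adjusted p 0.0966 to 0.2905), and Lhfpl3 without each but replicate 1 at 0.2 µM (limma adjusted p 0.0565 to 0.1426).

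**Figure D2:**
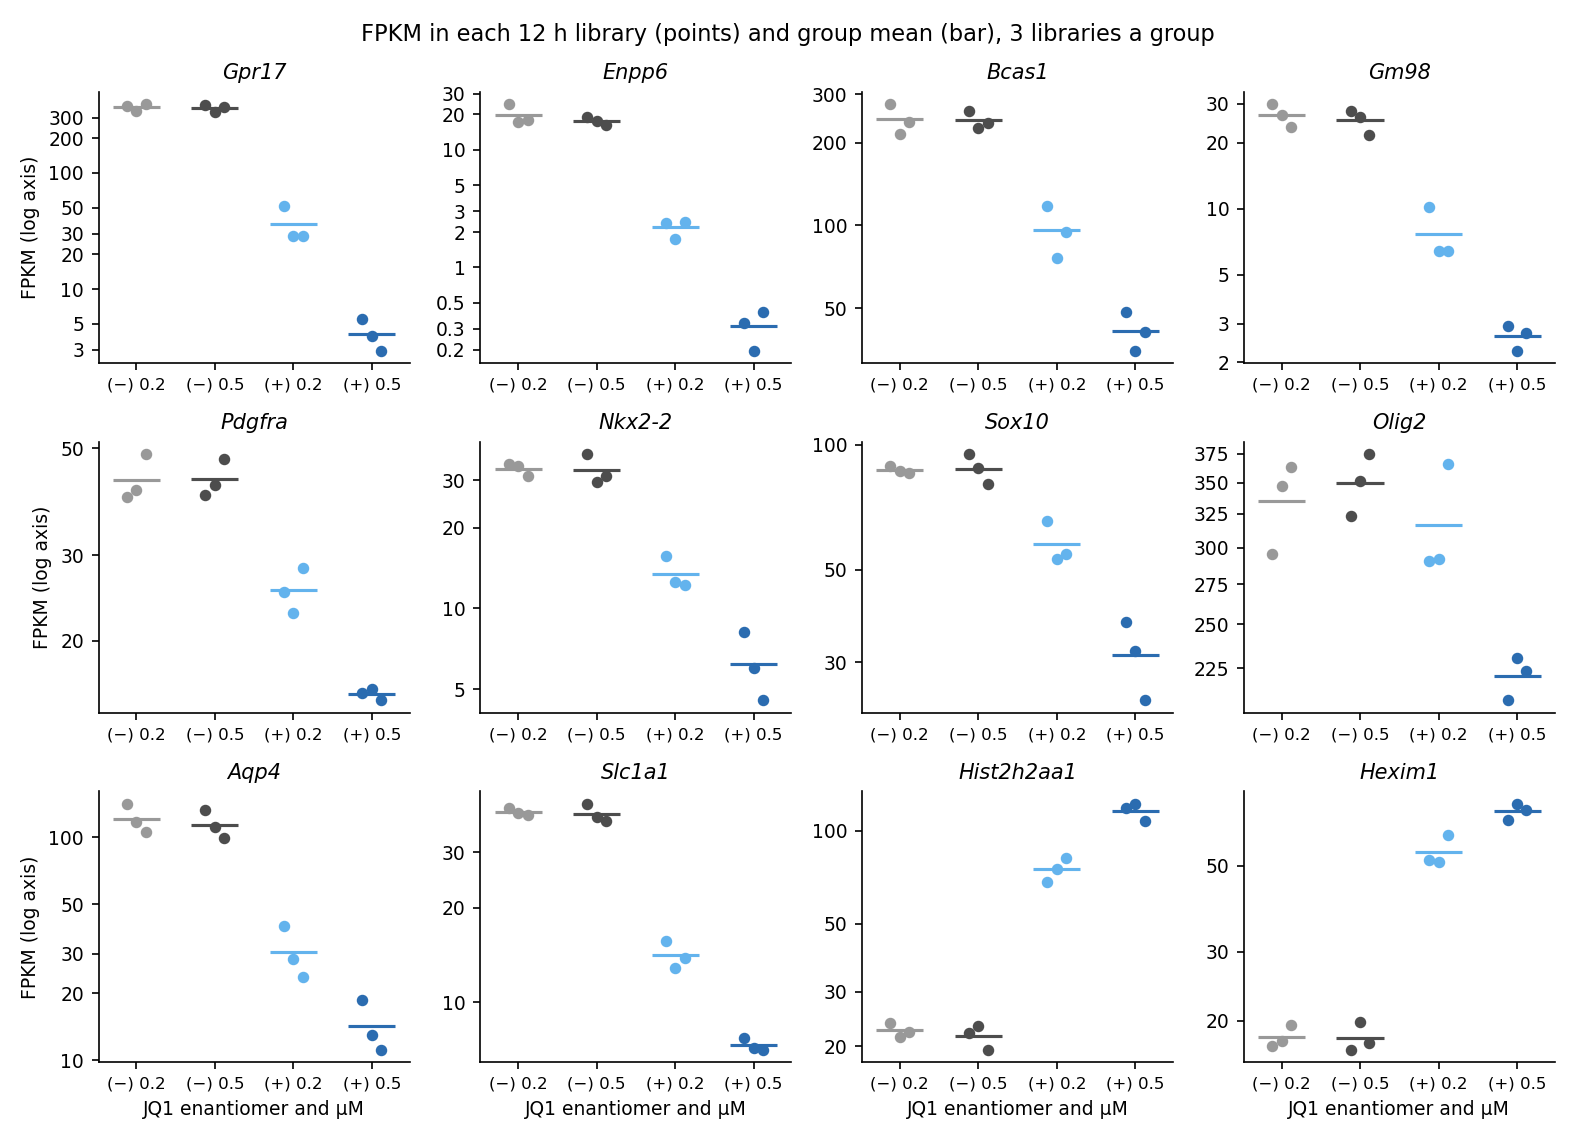
FPKM on log axes of 12 genes in each of the 12 libraries taken at 12 h (points) with the mean of each group (bars), for (−)-JQ1 and (+)-JQ1 at 0.2 and 0.5 µM. The (−) groups lie close together at both doses, the (+) groups step down from 0.2 to 0.5 µM in the first 10 genes (Gpr17 from 36.2 to 4.13 FPKM) and step up in Hist2h2aa1 and Hexim1, of which Hexim1 was not called, and Olig2 at 0.2 µM lies at the (−) level.

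To set sequence beside these values, the 250 bases upstream of the transcription start are shown for 2 genes that fell, the premyelinating gene Enpp6 and the precursor factor Nkx2-2, and for 2 that rose, the histone gene Hist2h2aa1 and the ephrin gene Efnb2 described below. They are RefSeq sequences of build GRCm38.p6, written 5′ to 3′ on the strand of the gene, whereas the expression values were made on mm9. In the first 2, capitals mark CANNTG (the E-box core, bound by basic helix-loop-helix factors such as Olig2) and ACAAT (a core bound by SOX factors such as Sox10) on either strand. In the other 2, capitals mark CCAAT and TATAAA on either strand. The 4 genes were picked as examples without a rule, and the motifs to mark were set by the direction of change. The positions are chr8:46986637-46986886 on the plus strand for Enpp6, chr2:147186403-147186652 on the minus strand for Nkx2-2, chr3:96245247-96245496 on the plus strand for Hist2h2aa1, which RefSeq names H2ac18, and chr8:8661243-8661492 on the minus strand for Efnb2.
Enpp6: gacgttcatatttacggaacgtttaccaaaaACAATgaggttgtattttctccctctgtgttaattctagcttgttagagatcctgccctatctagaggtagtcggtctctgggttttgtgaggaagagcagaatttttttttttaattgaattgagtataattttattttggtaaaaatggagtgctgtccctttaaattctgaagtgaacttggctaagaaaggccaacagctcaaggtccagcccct
Nkx2-2: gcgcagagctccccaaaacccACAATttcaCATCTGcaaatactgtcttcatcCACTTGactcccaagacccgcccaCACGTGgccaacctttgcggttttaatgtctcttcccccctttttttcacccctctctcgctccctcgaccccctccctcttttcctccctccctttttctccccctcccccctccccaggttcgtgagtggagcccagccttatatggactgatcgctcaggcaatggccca
Hist2h2aa1: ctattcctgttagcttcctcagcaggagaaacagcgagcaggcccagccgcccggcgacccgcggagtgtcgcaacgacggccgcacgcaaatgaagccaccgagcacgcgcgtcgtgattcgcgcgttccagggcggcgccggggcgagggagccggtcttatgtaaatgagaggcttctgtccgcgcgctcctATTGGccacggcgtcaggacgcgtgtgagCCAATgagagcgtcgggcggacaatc
Efnb2: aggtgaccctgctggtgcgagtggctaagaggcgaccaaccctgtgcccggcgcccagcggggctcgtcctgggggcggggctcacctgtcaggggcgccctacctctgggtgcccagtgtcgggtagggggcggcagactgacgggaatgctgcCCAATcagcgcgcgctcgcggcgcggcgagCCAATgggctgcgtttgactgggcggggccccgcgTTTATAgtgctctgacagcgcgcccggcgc
The Enpp6 window holds 1 ACAAT and no CANNTG match, the Nkx2-2 window 1 ACAAT and 3 CANNTG matches. The Hist2h2aa1 and Efnb2 windows each hold 2 CCAAT matches, and that of Efnb2 a TATAAA match as well. The motifs marked in the first 2 windows occur in these too, without capitals: the Hist2h2aa1 window holds 1 ACAAT and 1 CANNTG match and the Efnb2 window 1 CANNTG match. A window was found for 66 of the 84 genes that fell and for 10006 of the 13801 tested. ACAAT occurred in 18 of the 66 (27.3%) and in 17.7% of all windows. Both genes shown that fell hold it, so they do not stand for the 66. CANNTG was in 62.1% and 56.0%, CCAAT in 27.3% and 37.8%, and TATAAA in 4.55% and 6.12%. Of the 3 genes that rose and have a window, CANNTG was in 3, CCAAT in 2, and ACAAT and TATAAA in 1 each. The 4 motifs do not share letters at a position except where matches happen to overlap, and a match is only a run of letters, not a bound site.

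Several of the largest falls belonged to genes on none of the lists. Gpr56, an adhesion receptor of neural precursors that in the oligodendrocyte lineage keeps precursors dividing, was at 72.9, 52.2 and 57.5 FPKM at 0.2 µM and at 27.5, 18.5 and 21.6 FPKM at 0.5 µM. Its groups were far apart, and the log2 difference of -1.40 ± 0.19 (limma adjusted p = 0.000587) was the second largest of the 84. Slc1a1, a neuronal and glial glutamate transporter, was at 15.6, 12.8 and 13.8 FPKM and then at 7.66, 7.13 and 7.03 FPKM, with little spread at the higher dose (log2 -0.86 ± 0.10, limma adjusted p = 8.31e-05). Rap1gap, which switches off the small GTPase Rap1, fell from 7.04 ± 1.11 to 3.28 ± 0.361 FPKM (SD, n = 3 each; log2 -0.90 ± 0.11, limma adjusted p = 0.000223). The calls of Gpr56, Slc1a1 and Rap1gap held without each library.

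7 of the 84 genes had Rik symbols, given to transcripts that have no name from a known product. 3110035E14Rik was at 5.58, 3.84 and 4.79 FPKM at 0.2 µM and at 1.35, 1.24 and 1.46 FPKM at 0.5 µM (log2 -1.28 ± 0.15, limma adjusted p = 9e-05). 1810041L15Rik was at 2.77, 2.19 and 2.17 FPKM and then at 0.661, 0.661 and 0.494 FPKM (log2 -1.07 ± 0.11, limma adjusted p = 1.31e-05). Both kept their groups apart, and their calls held without each library. 4833424O15Rik was at 12.1, 11.6 and 14.2 FPKM at 0.2 µM and at 6.55, 6.73 and 6.02 FPKM at 0.5 µM (log2 -0.87 ± 0.13), a call that held too.

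Further genes among the 84 were picked after their values were seen. Afap1l2, an adaptor of the kinase Src, fell from 4.20 ± 0.398 to 1.75 ± 0.284 FPKM (log2 -0.92 ± 0.12, n = 3 each). Nalcn, a sodium leak channel, fell from 2.99 ± 0.136 to 1.28 ± 0.123 FPKM (log2 -0.81 ± 0.11). Prkcq and Phldb1, a protein kinase C and a membrane-binding protein, fell by 0.71 ± 0.10 and 0.78 ± 0.12 on the log2 scale. Cntn1, an adhesion molecule at axon and glia contacts, was at 22.7, 19.5 and 22.2 FPKM at 0.2 µM and at 14.1, 12.7 and 12.8 FPKM at 0.5 µM (log2 -0.66 ± 0.11). Dscaml1, an adhesion molecule of the Dscam family, changed by log2 -0.77 ± 0.12. These calls held without each library. Kcnj10, a potassium channel of glia, was called at log2 -0.80 ± 0.19, and that call was lost without each library but replicate 1 at 0.5 µM (limma adjusted p 0.0836 to 0.3093).

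The 21 tested astrocyte genes gave 1 call, where 0.645% of all genes were called. Aqp4, the water channel of astrocyte end-feet, was at 39.8, 28.5 and 23.6 FPKM at 0.2 µM and at 18.5, 13.1 and 11.1 FPKM at 0.5 µM, without overlap (log2 -1.05 ± 0.19, limma adjusted p = 0.00979). The call was lost without replicate 1 at 0.2 µM (limma adjusted p = 0.084) and without replicate 3 at 0.5 µM (0.0917). Gfap, the intermediate filament protein of astrocytes, was at 194, 182 and 179.8 FPKM and then at 127, 161 and 115 FPKM. Its groups were apart too, but the difference did not pass (log2 -0.48 ± 0.13, limma adjusted p = 0.119). S100b had a log2 difference of -0.55 ± 0.21, and the list's median was -0.16.

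Only 5 genes rose, each by less than 2-fold on the log2(FPKM + 1) scale. Hist2h2aa1, a histone H2A gene, was at 68.2, 75.3 and 81.7 FPKM at 0.2 µM and at 119, 123 and 107 FPKM at 0.5 µM, without overlap (log2 0.63 ± 0.12, limma adjusted p = 0.0146). Hist1h2al, another H2A gene, was at 7.37, 8.55 and 9.76 FPKM and then at 12.2, 14.1 and 11.7 FPKM (log2 0.52 ± 0.12, limma adjusted p = 0.0368). Efnb2, the ephrin-B2 ligand of Eph receptors, was at 16.2, 18.8 and 18.4 FPKM and then at 24.6, 27.3 and 27.7 FPKM, which are clearly apart (log2 0.55 ± 0.11, limma adjusted p = 0.0193).

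Kctd12, an auxiliary subunit of GABA-B receptors, rose from 14.9 ± 1.53 to 23.3 ± 3.66 FPKM (SD, n = 3 each; log2 0.60 ± 0.14), and Spink10, a protease inhibitor gene, from 0.893 ± 0.260 to 2.36 ± 0.688 FPKM (log2 0.82 ± 0.15). None of the 5 calls held without every library. Spink10 lost its call without replicates 2 and 3 at 0.2 µM and replicate 1 at 0.5 µM (limma adjusted p 0.068 to 0.0952), and Hist2h2aa1 without replicates 1 and 2 at either dose (limma adjusted p 0.056 to 0.1003). Efnb2 lost it without replicates 1 and 3 at 0.2 µM and replicates 2 and 3 at 0.5 µM (limma adjusted p 0.0593 to 0.1262). Hist1h2al kept it only without replicate 3 at 0.2 µM (otherwise limma adjusted p 0.0778 to 0.2405), and Kctd12 only without replicate 2 at 0.5 µM (otherwise limma adjusted p 0.075 to 0.2465).

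Clustered histone genes, whose products package newly made DNA, shared a direction at 12 h. All 22 tested members had a log2 difference above 0, where 56.5% of all genes were below 0. Their differences ran from 0.08 to 0.66, with a median of 0.43. In 10 of the 22 the libraries at 0.5 µM all lay above those at 0.2 µM, against 5.17% of all genes. Of the list only Hist2h2aa1 was called (Hist1h2al was not on it), and none was called without replicates 1 or 2 at either dose. The same list had a median of -0.03 at 24 h. Many of these genes are near-identical copies whose reads the deposited values may split, so single members are uncertain. Most of their transcripts end without a poly(A) tail, and the libraries were selected for poly(A); the part of this in the differences was not tested. Of the 11 tested genes of the histone variant list, 1 was called, where 0.645% of all genes were. H2afx was at 60.4, 70.6 and 75.4 FPKM and then at 86.7, 95.6 and 99.4 FPKM, which did not pass (log2 0.45 ± 0.12, limma adjusted p = 0.0901). H2afy2, which codes for a macroH2A variant, fell from 24.2 ± 2.17 to 16.1 ± 1.04 FPKM (SD, n = 3 each; log2 -0.56 ± 0.10, limma adjusted p = 0.00735), a call lost without replicate 2 at 0.2 µM (limma adjusted p = 0.056).

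Genes of the BET and P-TEFb machinery gave no call: none of the 14 tested members of that list passed. Hexim1, which codes for an inhibitor of P-TEFb and is widely used to follow BET inhibitors, was at 51.6, 51.1 and 59.8 FPKM at 0.2 µM and at 65.4, 72.1 and 69.4 FPKM at 0.5 µM. The groups did not overlap, but the log2 difference of 0.35 ± 0.09 did not pass (limma adjusted p = 0.0779, 95% interval 0.17 to 0.52). Brd2 was at 132 ± 14.2 and 152 ± 11.3 FPKM (SD, n = 3 each; log2 0.20 ± 0.11), and Brd3 at 33.8 ± 2.66 and 32.4 ± 1.52 FPKM. The 95% interval of the log2 difference ran from -0.28 to 0.17 for Brd3, so differences within it remain possible.

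Myc, the growth regulator often lowered by BET inhibitors, was at 11.4, 12.8 and 17.2 FPKM at 0.2 µM and at 9.18, 8.34 and 12.1 FPKM at 0.5 µM. The groups overlapped and the difference did not pass (log2 -0.44 ± 0.14, limma adjusted p = 0.225, 95% interval -0.73 to -0.15). Mycn was at 0.769 ± 0.250 and 0.503 ± 0.0335 FPKM (SD, n = 3 each; log2 -0.23 ± 0.16). None of the 12 Myc family members and none of the 22 genes of nucleolar and polyamine Myc targets was called, and their medians were -0.0031 and -0.06. Txnip, which restrains thioredoxin and the import of glucose, was at 34.8, 56.7 and 39.8 FPKM and then at 64.3, 64.9 and 72.7 FPKM, apart but short of the threshold (log2 0.64 ± 0.15, limma adjusted p = 0.0656).

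Neuronal, stem cell and signalling genes gave few calls, where 0.645% of all genes were called. Of 22 tested genes of the neuronal cytoskeleton and synapse, Nsg2, a membrane protein of neuronal endosomes, was called: it was at 24.4, 20.2 and 20.8 FPKM at 0.2 µM and at 14.5, 13.8 and 13.6 FPKM at 0.5 µM (log2 -0.60 ± 0.09, limma adjusted p = 0.00139), and the call held without each library. Dcx, the microtubule protein of migrating neurons, was at 14.3 ± 0.780 and 9.06 ± 0.764 FPKM (SD, n = 3 each; log2 -0.60 ± 0.18, limma adjusted p = 0.162), and Tubb3, neuronal tubulin, at 109.6 ± 12.8 and 129 ± 31.8 FPKM (log2 0.21 ± 0.18). Of the 12 proneural factors Myt1, a zinc finger factor found in both neurons and oligodendrocyte precursors, was called lower, from 29.4, 35.4 and 33.0 to 20.4, 23.8 and 21.5 FPKM (log2 -0.55 ± 0.12, limma adjusted p = 0.0274). It lost the call without replicates 2 or 3 at 0.2 µM and replicates 1 or 3 at 0.5 µM (limma adjusted p 0.1079 to 0.1539).

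None of the 19 tested stem cell and radial glia genes was called. 8 of the 19 were below 0, where 56.5% of all genes were, and the median was 0.03. Sox2, which maintains progenitors, was at 240.4 ± 12.9 and 227 ± 7.53 FPKM, and Nes, their intermediate filament, at 119 ± 21.3 and 122 ± 23.5 FPKM (SD, n = 3 each). Their log2 differences had 95% intervals from -0.37 to 0.20 and from -0.32 to 0.38. None of the 15 tested Notch genes was called: Jag1, a ligand, had a log2 difference of 0.48 ± 0.13 (limma adjusted p = 0.116), Dll3, a ligand-like inhibitor, of -0.75 ± 0.21 (limma adjusted p = 0.126), and Hes5, an effector, of 0.23 ± 0.27. The SE of Hes5 takes in the 24 h libraries, where it was at 110, 248 and 110 FPKM at 0.2 µM (+)-JQ1. None of the 15 genes of the BMP list was called either, with Bmp4 at log2 -0.68 ± 0.21 (limma adjusted p = 0.199).

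Of 25 tested G2 and mitosis genes none was called. 24 were above 0, where 56.5% of all genes were below 0, and the median was 0.20. Mki67, a marker of dividing cells named here after its values were seen, was at 1.36, 1.96 and 3.40 FPKM at 0.2 µM and at 2.06, 1.71 and 6.20 FPKM at 0.5 µM, so the third library was the highest at each dose. None of 24 S phase genes was called (median 0.04), nor of 17 G1 cyclins and CDK inhibitors, with Ccnd1 at 2.91 ± 1.06 and 2.65 ± 0.499 FPKM (SD, n = 3 each; log2 -0.08 ± 0.21). No gene was called in the lists of interneuron factors, cytokine and JAK-STAT signalling, FGF-ERK feedback, cholesterol synthesis, immediate early genes, apoptosis and p53 targets, integrated stress, alpha-arrestins and glucose uptake, extracellular matrix, and interferon response. Their medians lay between -0.09 for extracellular matrix and 0.10 for immediate early genes. The lists of microglial, endothelial, pericyte, and ependymal genes gave no call among the 1, 1, 5 and 3 members that passed the filter, and no erythroid gene passed it.

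**Figure D3:**
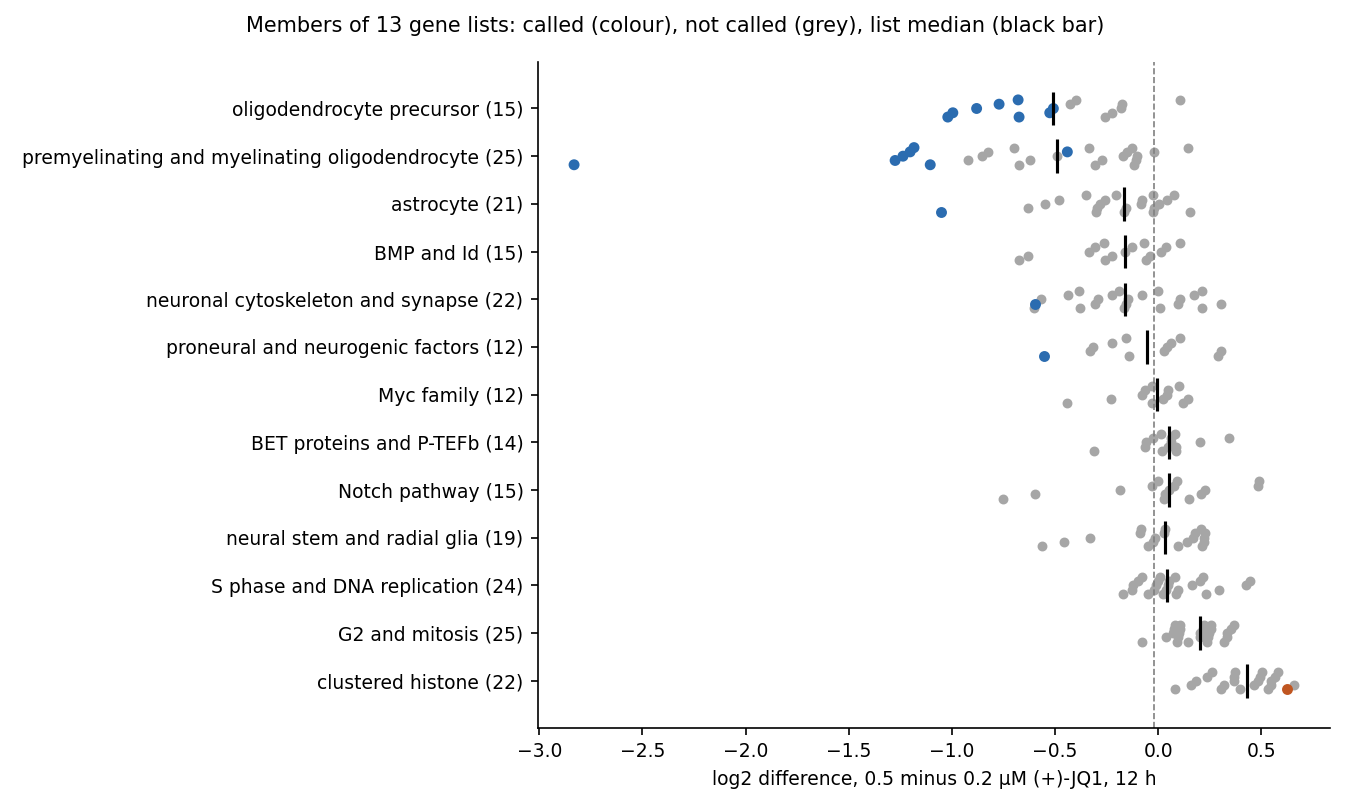
Log2 difference between 0.5 and 0.2 µM (+)-JQ1 at 12 h (x axis) of the tested members of 13 gene lists (y axis, number of tested members in brackets). Points are genes, called lower in blue, called higher in orange and not called in grey, black bars are list medians and the dashed line is the median of all genes, -0.02; both oligodendrocyte lists have medians near -0.5 and the clustered histone list has its 22 members above 0.

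The same dose step with the inactive enantiomer gives the background. With (−)-JQ1 at 12 h, limma called 0 of 13801 genes (0%), with 26 higher and 33 lower at an unadjusted p under 0.05. The 3 libraries of one dose lay wholly above those of the other in 2.21% of genes for the higher dose and in 2.33% for the lower dose. Gpr17 was at 379, 341 and 391 FPKM at 0.2 µM (−)-JQ1 and at 383, 335 and 368 FPKM at 0.5 µM, ranges that overlap (log2 -0.03 ± 0.21). The 84 genes that fell with (+)-JQ1 had log2 differences between -0.16 and 0.13 with (−)-JQ1, with a median of -0.03 and 58 of 84 below 0, where 52% of all genes were. The genes with the smallest p and a mean of at least 5 FPKM in this comparison, Tmem216 among the higher and 1700060O08Rik among the lower, reached log2 0.45 ± 0.19 and -1.33 ± 0.42, both at a limma adjusted p of 1.

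Whether the 2 mirror-image molecules differ in their dose step was tested directly, as the difference of the 2 log2 differences, which uses the same (+) libraries again. 6 genes passed (0.0435%), all with the larger fall under (+)-JQ1: Gpr17 (log2 -2.80 ± 0.30), 3110035E14Rik (-1.22 ± 0.21), Enpp6 (-1.12 ± 0.19), 1810041L15Rik (-0.98 ± 0.15), Rap1gap (-0.93 ± 0.16) and Slc1a1 (-0.85 ± 0.14). Their limma adjusted p ran from 0.000103 for Gpr17 to 0.0261. Leaving out 1 of the 12 libraries at a time left between 1 and 5 genes called. It was 1 without replicate 3 at 0.5 µM (+)-JQ1, replicate 2 at 0.2 µM (−)-JQ1, or replicate 1 or 2 at 0.5 µM (−)-JQ1. It was 2 without replicate 1 at 0.2 µM (+)-JQ1, replicate 1 or 2 at 0.5 µM (+)-JQ1, or replicate 3 at 0.2 µM (−)-JQ1, and 3 without replicate 3 at 0.2 µM (+)-JQ1. For the other 78 genes that fell with (+)-JQ1, a difference between the enantiomers was not shown; for Pdgfra it was log2 -0.68 ± 0.15 (limma adjusted p = 0.138) and for Gpr56 -1.36 ± 0.27 (limma adjusted p = 0.0815).

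Set against the level in the 6 (−)-JQ1 libraries at 12 h, most of the 84 genes were already low at 0.2 µM and lower at 0.5 µM. These shares rest on the same (+) libraries as the dose step and are given as a description. The median share of the (−) level left was 40.2% at 0.2 µM and 23.7% at 0.5 µM. Gpr17 kept 9.88% at 0.2 µM and 1.13% at 0.5 µM, Enpp6 11.7% and 1.70%, and Pdgfra 59.0% and 36.0%. 3 genes kept more than 90% at 0.2 µM: Olig2 kept 92.2% and then 64.5%, Myt1 97.2% and then 65.2%, and 4833424O15Rik 103% and then 52.7%. Olig2 was at 336 ± 35.3 FPKM in 0.2 µM (−)-JQ1 and at 316 ± 43.1 FPKM in 0.2 µM (+)-JQ1 (SD, n = 3 each), a log2 difference of -0.09 ± 0.11 (limma adjusted p = 0.618). At 0.5 µM the same difference was -0.66 ± 0.11 (limma adjusted p = 6.66e-05). Myt1 (-0.03 ± 0.12 and -0.60 ± 0.12) and 4833424O15Rik (0.07 ± 0.13 and -0.83 ± 0.13) had the same order of values.

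The 24 h libraries repeat the dose step in other cultures and share no library with the 12 h ones. Their calls are not fully separate, because the spread is shared over all 24 libraries in the fit. Replicate 2 at 0.2 µM and 24 h had Mir5105 at 46.9% of its summed FPKM. The other (+)-JQ1 libraries at 24 h had it at 3.06 to 4.02%. At 24 h, 297 genes were called (2.15%), 283 lower (2.05%) and 14 higher (0.101%), and the libraries of the 2 doses did not overlap in 15.3% of genes with the higher dose below and in 3.81% with it above. All 84 genes that fell at 12 h had a log2 difference below 0 at 24 h, where 60% of all genes did, and 61 of them were called lower there, which is 72.6% of the 84 and 21.6% of the 283. Their median log2 difference was -0.67 at 12 h and -0.66 at 24 h. The count of shared calls was 43 after median-of-ratios scaling and 175 with library weights, out of 59 and 259 genes called lower at 12 h. The count called at 24 h itself ranged from 137 to 375 as single 24 h libraries were left out. It was 137 without replicate 1 at 0.5 µM, 158 without replicate 2 at 0.2 µM and 167 without replicate 2 at 0.5 µM. When the (+)-JQ1 libraries at 24 h alone were fitted, it was 38.

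Gpr17 was at 44.3, 46.8 and 66.1 FPKM at 0.2 µM and 24 h and at 5.75, 7.66 and 10.6 FPKM at 0.5 µM, apart as at 12 h (log2 -2.58 ± 0.21, limma adjusted p = 4.69e-07). Enpp6 went from 2.95 ± 0.191 to 0.212 ± 0.0921 FPKM (SD, n = 3 each; log2 -1.71 ± 0.13), and Tnr from 10.2 ± 1.80 to 1.71 ± 0.192 FPKM (log2 -2.03 ± 0.21). Pdgfra had nearly the same step at both times (log2 -0.67 and -0.68). Nkx2-2 (log2 -0.67 ± 0.19), Cacng4 (-0.54 ± 0.16), Kcnj10 (-0.32 ± 0.19) and Lima1 (-0.27 ± 0.09) were among the 23 that did not pass at 24 h. All 5 genes that rose at 12 h were above 0 at 24 h and Efnb2 alone was called, from 26.4, 24.3 and 26.3 to 37.9, 36.0 and 34.7 FPKM (log2 0.48 ± 0.11, limma adjusted p = 0.0214).

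A test of the difference between the 24 h and the 12 h dose step called 0 genes, with 117 higher and 224 lower at an unadjusted p under 0.05 and a smallest limma adjusted p of 0.457. Among genes with a mean of at least 5 FPKM and a lower value at 24 h, the smallest p belonged to 3 genes. Myl9, a myosin light chain, had a log2 dose difference of -0.20 ± 0.20 at 12 h and -1.39 ± 0.20 at 24 h, Acta2, smooth muscle actin, of -0.23 ± 0.15 and -1.09 ± 0.15, and Cd151, a tetraspanin, of -0.15 ± 0.15 and -0.86 ± 0.15. All 3 were called lower at 24 h only, which does not show that the times differ.

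**Figure D4:**
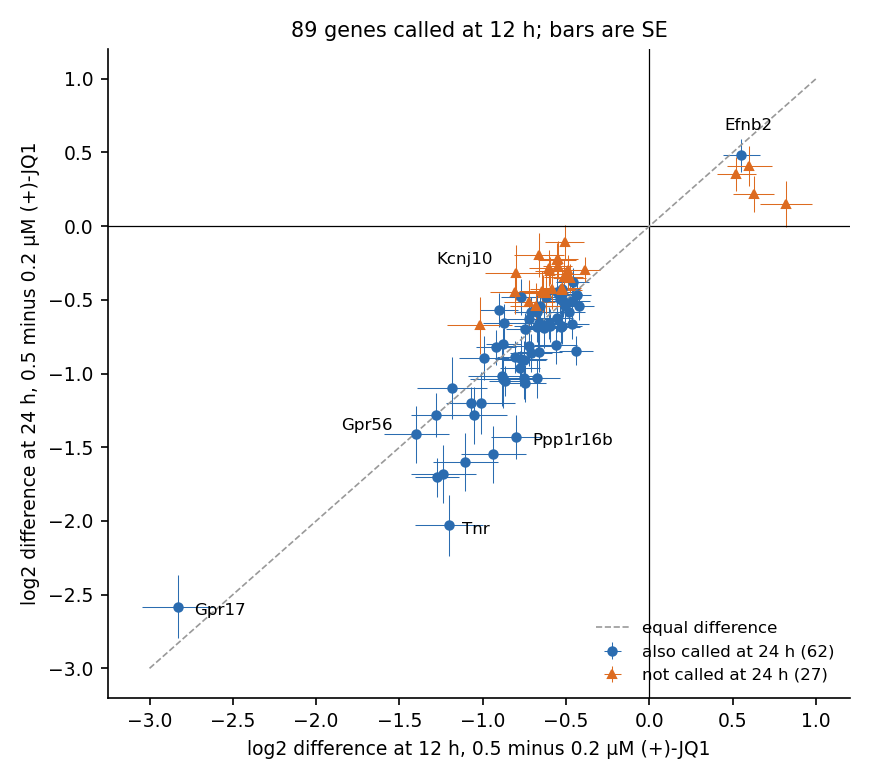
Log2 difference between 0.5 and 0.2 µM (+)-JQ1 at 24 h (y axis) against that at 12 h (x axis) for the 89 genes called at 12 h, with bars of 1 SE each way. Blue circles are the 62 genes also called at 24 h and orange triangles the 27 that were not; all points lie in the quadrants of equal sign, and the dashed line marks equal differences.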

How the data were processed

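RNA was measured in 24 libraries of cultured mouse neural progenitors, 3 in each of 8 groups. Per the labels' protocols, poly(A) RNA was primed with random hexamers and read as 50-base single ends on an Illumina instrument. FastQC, TopHat2 and the build mm9 are named in the submitters' processing notes. For each gene symbol the authors deposited an FPKM value. The program behind them, the annotation and the strand setting are not given in the sources used here. Depth relative to other libraries was read from the steps between low values.

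Each file held 26694 genes. 58 entries of 29 repeated symbols were left out, and 26636 remained. The 13801 genes that reached 1 FPKM in 3 or more libraries were tested as log2(FPKM + 1), with limma 3.58.1 in R 4.3.3: 1 mean per group, 16 residual degrees of freedom, empirical Bayes moderation with trend and robust settings, and Benjamini-Hochberg adjustment at 0.05. All 8 groups enter the fit, so the spread is shared. SD and n are of the libraries in a group, and 95% intervals are those of limma. The script was tested on simulated data.

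The comparison, the 31 gene lists and the other choices were made with earlier results of these data known. Genes were named by rule: the 12 largest falls and rises among called genes with groups apart and a mean of at least 5 FPKM (filled by smallest p where fewer were called, and given as values), 3 each way in the other comparisons, up to 4 members of each list, and a fixed panel. Other names are said to have been picked afterwards, and the genes that change with a setting or a time were named for that. The replicate numbers were not taken to pair libraries, because same-numbered deviations correlated at 0.0749 to 0.108 in this comparison and not every one passed 0.1. That cut does not exclude pairing, since 6 of 6 libraries correlated best with their own number. If the numbers mark preparations, the fit without a block leaves differences between preparations in the spread. No 2 libraries were copies: at most 0.855% of the values of the tested genes, shared zeros included, were identical between any 2. Alternatives were median-of-ratios scaling, a replicate block, a pseudocount of 0.1, other filters, fits to fewer libraries, library weights, short RNAs left out, no trend or robust setting, and each library left out. Fits to the 12 h libraries alone, to the 6 libraries with a block, and without the 24 h libraries with high Mir5105 were added after seeing the data. Values of a few genes are not reported here.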

Additional observations from a re-analysis of the deposited data

Results flagged for a closer look

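6 genes had a larger fall between 0.2 and 0.5 µM with (+)-JQ1 than with (−)-JQ1 at 12 h by a test of that difference itself, and are listed here for that reason. The log2 difference between the dose steps was -2.80 for Gpr17 (limma adjusted p = 0.000103), -1.22 for 3110035E14Rik, -1.12 for Enpp6, -0.98 for 1810041L15Rik (limma adjusted p = 0.0143), -0.93 for Rap1gap and -0.85 for Slc1a1, with a limma adjusted p of 0.0261 for the other 4. In each of the 6 genes the 3 libraries at 0.5 µM (+)-JQ1 lay below the 3 at 0.2 µM, against 10.7% of all genes tested. The 6 were picked by a test on these same libraries, so this describes them and adds no separate support.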

How the results depend on the processing

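The FPKM values carry no read counts, so depth sets no interval here, and 3 libraries in a group limit what can pass. No called gene changed direction under any alternative run. Sign changes of named genes called in neither the main fit nor the alternative were not counted. Some genes not called in the main fit were called in alternatives, among them Txnip and H2afx in 5 of 18 each, Dcx and Dll3 in 4 each, and Hexim1 in 3. The median log2 difference of all genes at 12 h went from -0.02 to 0.0037 after median-of-ratios scaling. The 89 genes called for (+)-JQ1 at 12 h became 137 with a pseudocount of 0.1, 30 when only the groups compared were fitted, 302 with library weights, 208 with the 12 h libraries alone, 470 with only the groups compared and a replicate block, and 35 to 59 without single replicates; the cause was not tested. The split was 5 higher and 84 lower, 43 and 259 with library weights, 109 and 361 with the 6 libraries and a block, and 7 and 59 after median-of-ratios scaling. The 0 genes for (−)-JQ1 became 1 with no filter and 2 when only the groups compared were fitted. The 6 genes for the difference between the enantiomers became 2 after median-of-ratios scaling, 10 with a pseudocount of 0.1, 3 with no filter, 14 when only the groups compared were fitted, 33 with library weights, 1 with short RNAs left out, 17 without the 24 h libraries high in Mir5105, and 1 to 5 without single replicates. The 297 genes at 24 h became 38 when only the groups compared were fitted, 582 with library weights and 137 to 375 without single replicates. The difference between 24 and 12 h had 0 genes in every alternative. With a replicate block over all 24 libraries, the counts were 115 at 12 h, 0 for (−)-JQ1, 9 for the enantiomers, 334 at 24 h and 0 for the times. At 12 h, 6 of 6 (+)-JQ1 libraries and 6 of 6 (−)-JQ1 libraries (same-numbered correlations 0.0721 to 0.132) correlated best with their own number, which is a hint from the data and not from the design; at 24 h, 2 of 6 (+)-JQ1 libraries did. The 20 called members of lists became 10 when only the groups compared were fitted, 39 with library weights, 34 with the 12 h libraries alone, 70 with the 6 libraries and a block, and 11 to 14 without single replicates.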
